A study of Sus scrofa with 12 samples.

Results

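The genes described here encode sperm proteins of gamete fusion, namely IZUMO1, IZUMO2, IZUMO3, IZUMO4, SPACA6, TMEM95, SPESP1, DCST1 and DCST2. They were chosen by symbol in the deposited table of coding genes, where 8 of the 9 had an entry among 21674 genes, and SPACA6 was not analysed here. Fusion of a sperm with an egg follows release of the acrosome, the secretory cap of the sperm head, which exposes membrane proteins that were kept inside it. IZUMO1 then binds IZUMO1R (JUNO) on the egg surface, and several other sperm membrane proteins are needed for the membranes to merge. These proteins are made in the testis while haploid round and elongating spermatids form, so that a testis without spermatids has little of their RNA.

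The study sequenced testis RNA depleted of ribosomal RNA from boars of the Chinese Hezuo breed (HZ) and the commercial Landrace breed (LC). Ha denotes Hezuo boars aged 30 days, Hb Hezuo boars aged 120 days, La Landrace boars aged 30 days and Lb Landrace boars aged 120 days. Each of the 4 groups held 3 boars with 1 library each, 12 in all, and neither breed was treated. The comparisons ask how far the RNA of these genes differs between the ages within a breed, and between the breeds at each age. Estimated counts of coding genes summed to between 1.72e+07 in Hb replicate 3 and 2.38e+07 in Ha replicate 1. Values below are listed for replicates 1, 2 and 3 of a group in that order. Replicates are single boars and the numbers carry no order. The tissue is whole testis and values are shares of a library. Fewer cells of a type, less RNA per cell and more RNA from other cells thus cannot be told apart.

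IZUMO1, the ligand of the egg receptor IZUMO1R, was low at 30 days and abundant at 120 days in both breeds. Its deposited FPKM, a measure of fragments scaled to transcript length and library size, was 0.08, 0.26 and 0.06 in Ha and 0.21, 0.18 and 0.06 in La. At 120 days it was 19.05, 18.96 and 14.14 in Hb and 10.74, 17.25 and 13.72 in Lb. All 6 libraries of 120 days lay above all 6 of 30 days, and the breeds overlapped at both ages. The estimated counts behind the 30-day values were small, 2.98, 9 and 2.19 in Ha and 7, 5.18 and 2 in La, against 693, 745 and 427 in Hb and 423, 667 and 440.0 in Lb. On the log2 scale the fitted change from 30 to 120 days was 7.51 ± 0.45 (SE) in Hezuo, with an edgeR adjusted p of 1.18e-05. In Landrace it was 6.88 ± 0.39, with an edgeR adjusted p of 1.47e-06. The size of the change moved between fits. It was 8.38 in Hezuo without Ha replicate 2, while limma gave 4.01 and 3.68 on log2(FPKM + 1), and 6.31 and 5.84 on log2(FPKM + 0.1), in Hezuo and Landrace.

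A gene was called when its edgeR adjusted p, corrected over all tested coding genes, was under 0.05 and its absolute log2 fold change was above 1. Of the 8 genes, 6 passed the filter on low counts in Ha against Hb and all 6 were called higher at 120 days, where 28.2% of the 16548 tested coding genes were called in that direction. The same 6 passed it in La against Lb and were called higher, where the share was 27.5% of 16637. IZUMO2 and IZUMO3 did not pass the filter with age in either breed. Where it was tested, without the filter or without 1 library, IZUMO2 was called higher with age in 5 of 5 refits in each breed, with adjusted p of 0.0103 to 0.0407 in Hezuo and 0.00334 to 0.00812 in Landrace. These were the fits without Ha replicate 1, 2 or 3 or Hb replicate 3, and without La replicate 1, 2 or 3 or Lb replicate 2, each of which called 7 genes, as did the fits without the filter. IZUMO3 was tested only in Hezuo without the filter and was not called (adjusted p = 0.0949). A gene that passes this filter only through its 120-day libraries had to differ, so the counts of 6 describe the genes and carry no further weight. IZUMO2 entered each fit without 1 library in that way, so its calls there carry no further weight either. The 5 refits of a breed also share libraries and are not separate tests. Across all coding genes 4666 were called higher and 3844 lower in Ha against Hb, and 4574 higher and 3352 lower in La against Lb. Without the TMM correction of library composition the median of all genes moved by -0.30 in Ha against Hb and by -0.17 in La against Lb on the log2 scale. The split of calls then became 3978 higher and 5039 lower in Ha against Hb. With limma on log2(FPKM + 0.1) it was 3596 higher and 5737 lower in Ha against Hb, and 3806 higher and 4445 lower in La against Lb. With limma on log2(FPKM + 1) it was 2813 higher and 3834 lower in Ha against Hb. Under each of these scalings all 6 genes were called higher in both breeds, except TMEM95 with limma on log2(FPKM + 1).

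**Figure D1:**
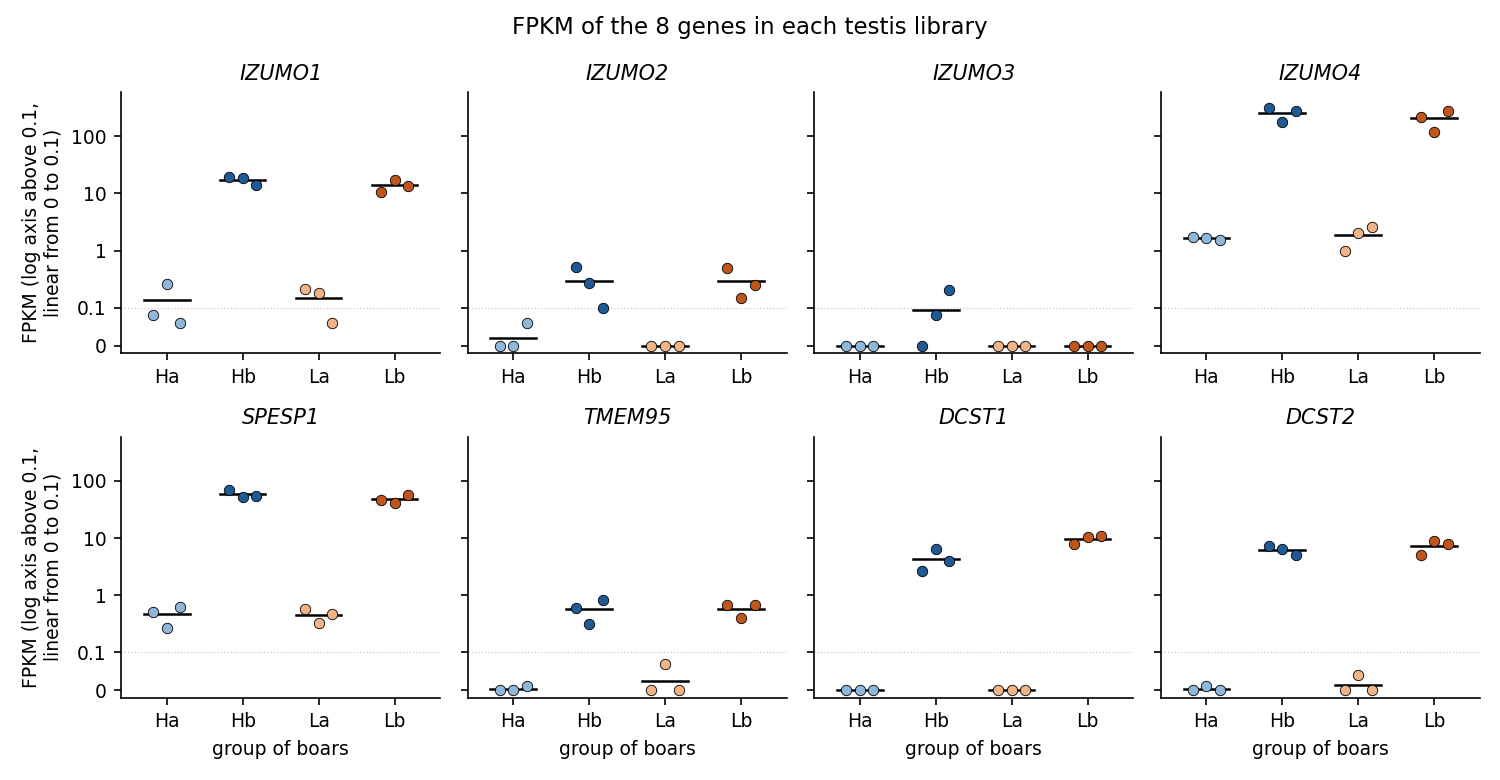
FPKM of the 8 genes in each testis library, with a panel per gene, a point per boar and a bar at the mean of each group (n = 3), on an axis that is logarithmic above 0.1 and linear from 0 to 0.1. IZUMO4 reaches 119.28 to 317.32 at 120 days, and DCST1 is the gene whose 120-day FPKM ranges do not overlap between Hb and Lb.

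IZUMO4, the member of the IZUMO family without a transmembrane part, had the most RNA of the 8 genes. Its FPKM was 1.74, 1.66 and 1.55 in Ha and 0.99, 1.99 and 2.61 in La. At 120 days it was 317.32, 180.11 and 281.93 in Hb and 219.63, 119.28 and 279.28 in Lb. The ages were far apart and the breeds overlapped at each age, with the lowest 120-day value of each breed in its replicate 2. It rose by 7.85 ± 0.35 on the log2 scale in Hezuo (edgeR adjusted p = 3.68e-06). The rise in Landrace was 7.08 ± 0.43 (edgeR adjusted p = 2.13e-06). With limma on log2(FPKM + 1) these values were 6.58 and 6.13. Counts of IZUMO4 at 30 days were 49.2, 44.5 and 43.6 in Ha and 26.5, 44.5 and 74.8 in La, so that its RNA was detected in every 30-day library.

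IZUMO2 and IZUMO3, the other IZUMO family members, were scarce at both ages. The estimated counts of IZUMO2 were 0, 0 and 2 in Ha, 18.3, 10.5 and 3.05 in Hb, 0, 0 and 0 in La and 19.7, 6.01 and 8.58 in Lb. It was seen in 1 of 6 libraries at 30 days and in 6 of 6 at 120 days, with no overlap between the ages. Against the 2 counts of Ha the ratio was 22.8, with an exact 95% interval of 5.80 to 196 that covers counting error only. Against the La libraries at 0, with a floor of 3 counts per library, IZUMO2 was at least 4.20-fold higher in Lb. IZUMO3, which is needed for the acrosome to form in the mouse, had 1.86 and 3.56 counts in Hb replicates 2 and 3 and 0 in the other 10 libraries. Its RNA was at or near the limit of detection in all groups, and no fold is given.

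SPESP1, a protein of the equatorial segment where the sperm membrane meets the egg, came second in abundance. Its FPKM was 0.5, 0.27 and 0.62 in Ha and 0.56, 0.32 and 0.46 in La. At 120 days it was 70.33, 52.49 and 53.65 in Hb and 45.9, 41.67 and 56.18 in Lb. Every 120-day library stood above every 30-day library, and the 30-day breeds overlapped. The rise was 7.49 ± 0.34 on the log2 scale in Hezuo (edgeR adjusted p = 4.14e-06) and 7.01 ± 0.21 in Landrace (edgeR adjusted p = 7.37e-08). With limma on log2(FPKM + 1) these values were 5.35 and 5.07.

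TMEM95, a sperm membrane protein that binds the egg surface, was low even at 120 days. The level of TMEM95 is uncertain, since the length implied by its counts and FPKM (3.42 kb) exceeds its annotated span (3.00 kb). Its estimated counts were 0, 0 and 1 in Ha and 0, 4 and 0 in La, against 43.5, 24.2 and 49 in Hb and 52.1, 31.2 and 43.6 in Lb. In FPKM the 120-day values were 0.6, 0.31 and 0.81 in Hb and 0.66, 0.4 and 0.68 in Lb. The ages did not overlap, and the breeds overlapped at 120 days. The ratio of Hb to the single count of Ha was 166, with an exact 95% interval of 29.3 to 6627 for counting error alone (edgeR adjusted p = 0.000382). In Landrace the log2 fold change was 4.98 ± 0.87 (edgeR adjusted p = 0.00100). All 4 counts of La were in replicate 2. Without that library La was at 0, so that the fitted 8.51 is no measured fold. The value was 4.39 without La replicate 1 and 4.36 without La replicate 3. With limma on log2(FPKM + 1), where a pseudocount of 1 exceeds every value of the gene, the log2 differences were 0.64 and 0.62 and TMEM95 was no longer called in either breed. Its adjusted p with limma was 0.00172 in Hezuo and 0.000234 in Landrace, within ranges over all alternatives of 2.60e-07 to 0.00269 and 1.28e-06 to 0.00725.

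DCST1 and DCST2 encode a pair of related sperm membrane proteins that act in fertilisation after the sperm has reached the egg. Both were at or near 0 at 30 days. DCST1 had 0 counts in all 6 libraries of 30 days, and 184, 489.7 and 228 in Hb and 589, 787 and 676 in Lb. DCST2 had 0, 1 and 0 in Ha and 0, 3 and 0 in La, and 759, 729 and 439.6 in Hb and 575, 979 and 722 in Lb. No 30-day library of either gene approached a 120-day library. With a floor of 3 counts per library, DCST1 was at least 138-fold higher in Hb than in Ha and at least 249-fold higher in Lb than in La (edgeR adjusted p = 9.29e-05 and 1.58e-06). The ratio of DCST2 to the single count of Ha was 2742 (exact 95% interval 491 to 108341) and to the 3 counts of La 835 (285 to 4053), intervals that again cover counting error only. Its edgeR adjusted p was 4.22e-06 in Hezuo and 2.00e-06 in Landrace.

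At 120 days the order of the genes on the FPKM scale was the same in both breeds for the upper and lower ranks. Over the 6 libraries of that age the mean FPKM was 232.9 for IZUMO4, 53.4 for SPESP1, 15.6 for IZUMO1, 7.01 for DCST1, 6.72 for DCST2, 0.577 for TMEM95, 0.295 for IZUMO2 and 0.0467 for IZUMO3. DCST2 was above DCST1 in Hb, with means of 6.24 and 4.31, and below it in Lb, with 7.20 and 9.70. IZUMO4 did not overlap SPESP1, SPESP1 did not overlap IZUMO1, and DCST2 did not overlap TMEM95. IZUMO1 and DCST1 touched by their extreme libraries, DCST1 and DCST2 overlapped widely, and IZUMO2 overlapped both TMEM95 and IZUMO3. By mean FPKM at 120 days, 99.2% of all genes in the table lay below IZUMO4, 95.1% below SPESP1 and 83.4% below IZUMO1, against 36.3% below TMEM95 and 30.4% below IZUMO2. At 30 days IZUMO4, SPESP1 and IZUMO1 kept that order, with means of 1.76, 0.455 and 0.142 FPKM. IZUMO4 and SPESP1 did not overlap there, nor did SPESP1 and IZUMO1, and the other 5 genes were too near 0 to be ranked. Comparisons between genes rest on the transcript lengths the authors used, which are not given in the sources used here.

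At 30 days 2 genes passed the filter for the comparison of the breeds, IZUMO4 and SPESP1, and the other 6 did not. Neither was called between Ha and La by edgeR, where 7.62% of 15648 coding genes were called. Neither had an unadjusted p under 0.05, against 36.4% of all tested genes, and DESeq2 and limma called 0 as well. Without the filter 6 of the 8 genes were tested and 0 were called, with 0 at an unadjusted p under 0.05. IZUMO1, with counts in all 6 libraries of that age, had 0.16 ± 0.85 in that fit (edgeR adjusted p = 0.926). The log2 fold change of Landrace over Hezuo was 0.24 ± 0.37 for IZUMO4 (edgeR adjusted p = 0.677) and 0.01 ± 0.44 for SPESP1 (edgeR adjusted p = 0.992). Values of both genes overlapped between Ha and La in counts and in FPKM.

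At 120 days 7 genes were tested between Hb and Lb and edgeR called 0 of them, where 3.85% of 16311 coding genes were called. There were 2 genes with an unadjusted p under 0.05, DCST1 and SPESP1, where 25.5% of all tested genes had such a p, so that 2 of 7 is near the background. DESeq2 called 1 gene, DCST1, and limma called 0 with either pseudocount. Across all coding genes edgeR called 432 higher and 196 lower in Landrace, and limma 409 higher and 104 lower on log2(FPKM + 1) or 667 higher and 167 lower on log2(FPKM + 0.1). That background count of 628 depended on single boars. It was 1029 without Hb replicate 2, 119 without Hb replicate 3, 182 without Lb replicate 1, 97 without Lb replicate 2 and 139 without Lb replicate 3. DESeq2 called 1153 genes and the fit of all 12 libraries 1227.

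Of the 7 tested fusion genes, DCST1 had the largest fold difference between the breeds at 120 days. Its FPKM was 2.61, 6.43 and 3.9 in Hb and 7.72, 10.46 and 10.91 in Lb. All 3 Landrace boars lay above all 3 Hezuo boars in estimated counts, in CPM (counts scaled to library size) and in FPKM, with Hb replicate 2 the closest to the Landrace values. The log2 fold change was 1.06 ± 0.30, with an unadjusted p of 0.00789 and an edgeR adjusted p of 0.0785, which missed the threshold. It passed the threshold with DESeq2 (1.05, adjusted p = 0.0102), in the edgeR fit of all 12 libraries (1.03, adjusted p = 0.0488) and without Hb replicate 2 (1.43, edgeR adjusted p = 0.0258). Over all 15 alternatives the adjusted p ran from 0.0102 to 0.210 and the log2 fold change from 0.82 to 1.43.

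DCST2, which lies next to DCST1 on the chromosome, was at like levels in both breeds. Its 120-day FPKM was 7.23, 6.43 and 5.05 in Hb and 5.06, 8.73 and 7.82 in Lb, and the groups overlapped. The log2 fold change was 0.09 ± 0.24 (edgeR adjusted p = 0.855). The ratio of DCST1 to DCST2 within a library, a quantity singled out after its values were seen, was 0.361, 1 and 0.772 in Hb and 1.53, 1.198 and 1.40 in Lb on the FPKM scale. All 3 Landrace ratios lay above the Hezuo ratios, and the difference in this ratio was not tested.

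SPESP1 was lower in Landrace on the CPM scale, where its values were 104 to 161 in Hb and 83.0 to 100.4 in Lb without overlap. On the FPKM scale the ranges overlapped, as Lb replicate 3 at 56.18 exceeded Hb replicates 2 and 3. The log2 fold change was -0.43 ± 0.18, with an unadjusted p of 0.0463 and an edgeR adjusted p of 0.189. CPM ranges of Hb and Lb did not overlap for 2 of the 7 tested genes, SPESP1 and DCST1, and for 32.3% of all tested coding genes, so that this count is close to the background.

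The other 4 tested genes overlapped between Hb and Lb in counts, CPM and FPKM. The log2 fold change was -0.48 ± 0.33 for IZUMO4 (edgeR adjusted p = 0.392) and -0.44 ± 0.22 for IZUMO1 (edgeR adjusted p = 0.260). TMEM95 gave -0.11 ± 0.47 and IZUMO2 -0.03 ± 0.71, with edgeR adjusted p of 0.905 and 0.986. These genes had few counts, 24.2 to 52.1 for TMEM95 and 3.05 to 19.7 for IZUMO2 at 120 days. IZUMO3 was not tested.

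**Figure D2:**
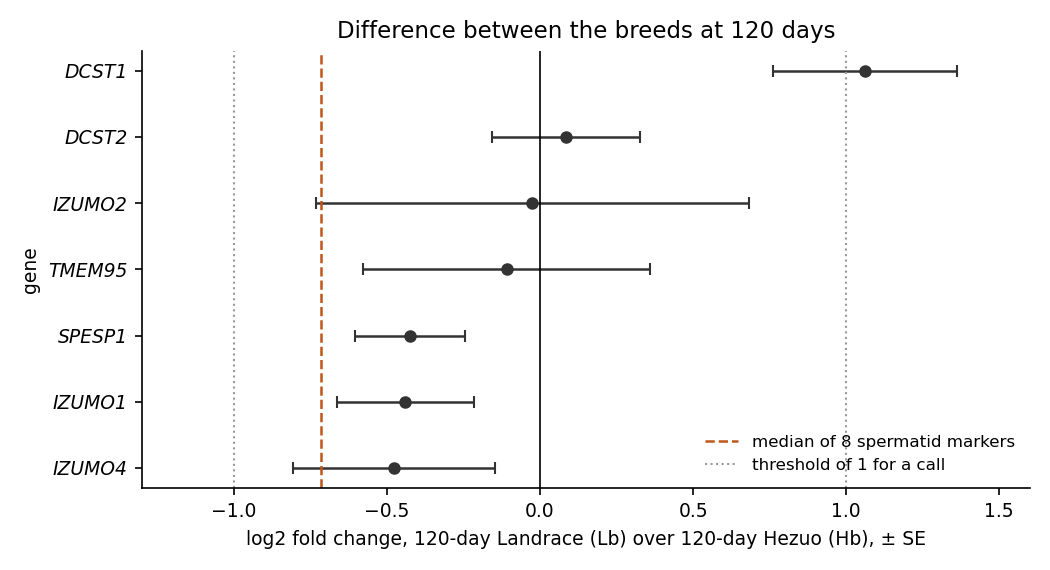
Fitted log2 fold change of 120-day Landrace over 120-day Hezuo with its SE for the 7 tested genes, each from 3 against 3 libraries, with the median of 8 spermatid markers as a dashed line. DCST1 sits at 1.06, IZUMO4, IZUMO1 and SPESP1 between -0.48 and -0.43, and the spermatid median at -0.72.

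Whether the change with age differed between the breeds was tested over all 12 libraries. edgeR called 0 of the 7 tested genes, where 5.14% of 17332 coding genes were called. None of the 7 had an unadjusted p under 0.05, against 24.1% of all tested genes. DESeq2 and limma on log2(FPKM + 0.1) called 0, and limma on log2(FPKM + 1) called 1, DCST1 (1.06, adjusted p = 0.0427, against 0.0427 to 1 over all 20 alternatives). As DCST1 was at 0 in all 6 libraries of 30 days, that value is its difference between Hb and Lb on the same scale, also 1.06 (limma adjusted p = 0.0567), and does not bear on a difference in the change with age. The difference, Landrace minus Hezuo, was -0.78 ± 0.53 for IZUMO4 (edgeR adjusted p = 0.401), -0.65 ± 0.70 for IZUMO1 (0.614) and -0.49 ± 0.40 for SPESP1 (0.488). For DCST1, DCST2, TMEM95 and IZUMO2 the 30-day counts were at or near 0, so that their fitted values are not read as differences of folds. Of all coding genes 609 were higher and 281 lower in this test, and 882 and 199 with total counts and no TMM. With limma these were 709 and 203 on log2(FPKM + 1), and 1068 and 297 on log2(FPKM + 0.1). The count of 890 fell to between 437 and 577 without Ha replicate 1 (437) or 2 (501), Hb replicate 3 (566), La replicate 1 (577), 2 (490) or 3 (461), or Lb replicate 2 (575). DESeq2 called 1363.

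Markers of testis cell types show what each library held, and all 8 spermatid markers (PRM1, PRM2, TNP1, TNP2, ACRV1, SPACA1, ODF1 and AKAP4) were in the table and detected. PRM1 was the most abundant of them at 120 days. Their CPM summed to 4.6, 5.18 and 6.06 in Ha and 8.57, 7.28 and 4.25 in La, and to 5994, 5473 and 7686 in Hb and 3912, 3217 and 2969.7 in Lb. The sums of 30 days were near 0, and at 120 days every Landrace boar lay below every Hezuo boar. All 8 rose with age in both breeds, with medians of 11.06 and 9.22 on the log2 scale, or 10.78 and 9.14 with the genes near 0 at their bound. The 6 tested fusion genes had medians of 7.68 and 7.05, or 7.50 and 7.05 with bounds, beside medians over all tested genes of -0.02 and 0.01. Between Hb and Lb the spermatid markers had a median of -0.72, with 0 called higher and 1 lower (AKAP4, -1.10 ± 0.21, edgeR adjusted p = 0.0283), where the median of all genes was 0.00. The fusion genes differed from the spermatid median by 0.24 for IZUMO4, 0.27 for IZUMO1, 0.29 for SPESP1, 0.61 for TMEM95, 0.69 for IZUMO2, 0.80 for DCST2 and 1.78 for DCST1. The part of spermatid number in the values of the fusion genes was not tested.

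Markers of earlier germ cells were also all detected. The 8 spermatocyte markers, led by PIWIL1, summed to 31.7, 35.6 and 19.9 CPM in Ha, 783, 676 and 651 in Hb, 16.1, 14.1 and 12.7 in La and 502, 485 and 494 in Lb. The 11 spermatogonial markers, led at 120 days by DDX4, which later germ cells make too, summed to 369, 363 and 304 in Ha, 857, 820.3 and 817 in Hb, 223, 222 and 231 in La and 701, 638 and 657 in Lb. The spermatocyte sum was higher at 120 days and lower in Landrace than in Hezuo at either age, without overlap. The spermatogonial sum followed DDX4 at 120 days. Without DDX4 it was 285 to 349 in Ha, 228 to 309 in Hb, 210.2 to 215 in La and 267 to 285 in Lb, so that Hb overlapped both Ha and Lb. All 8 spermatocyte markers were called higher with age in both breeds, while of the 11 spermatogonial markers 3 were called higher and 6 lower in Hezuo and 4 higher and 5 lower in Landrace. Between Ha and La, edgeR called 4 of 8 spermatocyte markers and 1 of 10 tested spermatogonial markers lower in Landrace. Between Hb and Lb it called 0 of 8 and 0 of 10.

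Sums of somatic markers, as shares of each library, were lower at 120 days than at 30 days in both breeds. The 7 Leydig cell markers, led by CYP17A1, summed to 10086, 9586 and 8750.2 CPM in Ha, 4066, 331 and 268 in Hb, 13676, 9326 and 11211 in La and 4922, 7417 and 3086 in Lb. In Hb replicates 2 and 3 CYP17A1 gave 21.2 and 19.3 CPM and did not lead the list. Hb replicate 1 lay an order of magnitude above the other Hb boars and inside the range of Lb. The 10 peritubular and stromal markers, led by COL3A1, summed to 4731, 4586 and 4509 in Ha, 608, 354 and 255 in Hb, 6908, 6180.4 and 7613 in La and 3084, 3007 and 2571 in Lb. These were lower in every Hb boar than in any other library, and 5 of the 10 were called higher in Lb than in Hb. Of the 10, 8 were called lower with age in Hezuo, and 5 lower and 1 higher in Landrace. Within this list ACTA2 was called higher with age in Landrace (1.42) and lower in Hezuo (-1.14). MYH11 and DES were called in neither breed, with -0.57 and 0.11 in Hezuo and 0.33 and 0.37 in Landrace. The 8 Sertoli cell markers, led by INHA, summed to 1269.8, 1209.6 and 1664 in Ha, 405, 579 and 467 in Hb, 2642, 3213 and 2914 in La and 605, 753 and 640.5 in Lb. The sums decreased in the order La, Ha, Lb and Hb without overlap, and edgeR called 3 of the 8 higher in La than in Ha and 0 of the 8 between Hb and Lb.

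The 5 endothelial markers, led by VWF, summed to 669, 681 and 616 CPM in Ha, 173, 305 and 186 in Hb, 795, 627 and 756 in La and 316, 497 and 278 in Lb. The 5 macrophage markers, led by CSF1R, summed to 124, 101 and 106 in Ha, 17.5, 20.1 and 10.7 in Hb, 122, 107 and 115 in La and 21.3, 37.8 and 35.9 in Lb. Both sums were lower at 120 days in both breeds, and 1 marker of each list was called higher in Lb than in Hb. Epididymal epithelium was represented by 3 of 4 listed markers, which summed to at most 0.743 CPM in any library, with LCN10 at 0 in all 12 and LCN8 without an entry. Epididymal RNA was thus near the limit of detection. The part of any of these cell types in the results on the fusion genes was not tested. Without Hb replicate 1, the boar with high Leydig markers, the same 6 genes were called higher with age in Hezuo, and DCST1 was not called between the breeds.

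**Figure D3:**
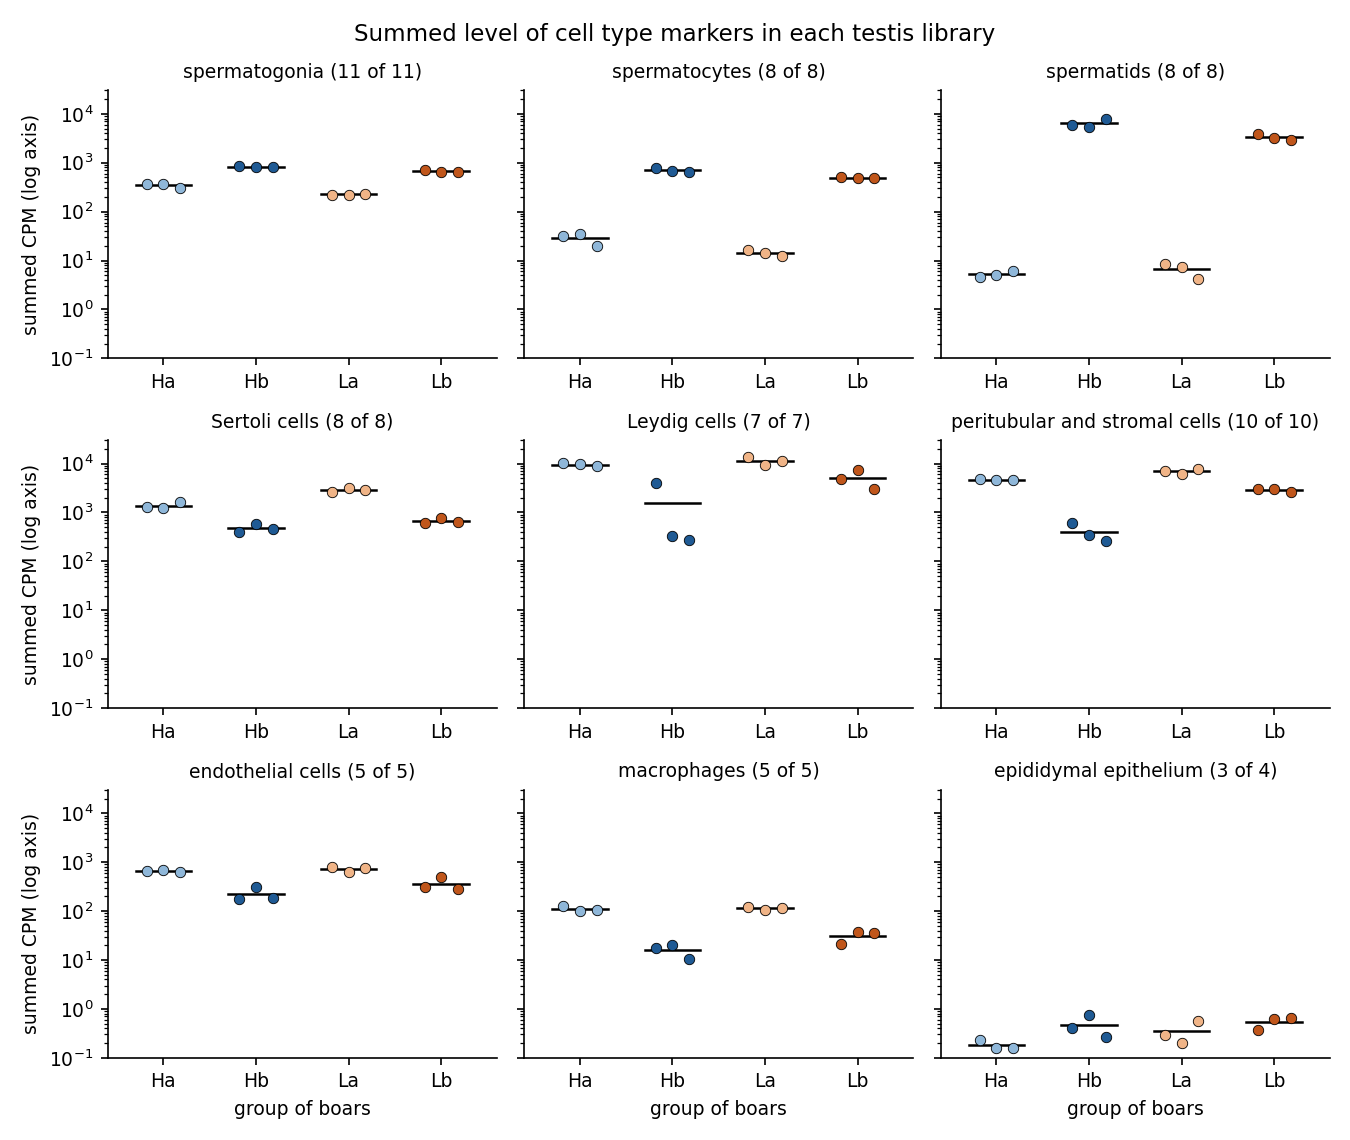
Summed CPM of 9 lists of cell type markers in each testis library on a logarithmic axis, with a point per boar, a bar at the mean of each group (n = 3) and the number of listed genes found. Spermatid sums are 5473 to 7686 in Hb and 2970 to 3912 in Lb, against 4.25 to 8.57 at 30 days.

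Other sperm factors of gamete adhesion and fusion formed a list of 9, of which LLCFC1 and FIMP had no entry under these symbols. In both age comparisons 4 of the 5 tested genes rose, and EQTN and CRISP1 were too low to be tested. CRISP2, a secretory protein that sperm carry and that takes part in fusion, was the most abundant, with FPKM of 1274.9, 1136.82 and 1464.96 in Hb and 756.33, 765.39 and 722.23 in Lb. Its 30-day FPKM lay between 1.02 and 1.84, and all Hb boars were above all Lb boars. The rise was 10.53 ± 0.30 on the log2 scale in Hezuo and 9.33 ± 0.21 in Landrace (edgeR adjusted p = 1.67e-06 and 3.54e-08). TSSK6, a kinase that is needed for IZUMO1 to relocate in the mouse, rose by 10.23 ± 0.35 and 9.93 ± 0.28, with FPKM of 362.53, 243.82 and 389.12 in Hb and 220.43, 184.89 and 158.77 in Lb. TMEM81, a partner of IZUMO1 and SPACA6, had FPKM of 0.45, 0.4 and 0.58 in Ha and 2.58, 1.8 and 2.72 in Hb, and 0.45, 0.52 and 0.37 in La and 1.35, 2.35 and 3.22 in Lb. It rose by 2.81 ± 0.33 and 2.66 ± 0.35, with the groups of each breed apart. SPACA4, a sperm surface protein, rose by 7.46 ± 0.50 in Landrace and by a ratio of 704 over the 2 counts of Ha in Hezuo, with an exact 95% interval of 194 to 5820.2. CD46, which sperm of some mammals carry on the inner acrosomal membrane, had log2 fold changes of -0.52 ± 0.20 and -0.74 ± 0.15 and was not called. It was called lower in both breeds by limma, at -1.37 and -1.14 on log2(FPKM + 1). The list had medians of 9.17 in Hezuo and 7.46 in Landrace, or 7.29 and 7.46 with SPACA4 at its bound.

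Oocyte partners were a list of 3. IZUMO1R, the egg receptor of IZUMO1, had 0 counts in all 12 libraries. CD81 and CD9, membrane proteins of the egg that many somatic cells make too, were high at 30 days. CD9 had FPKM of 48.84, 30.61 and 24.84 in Ha, 10.75, 8.9 and 13.21 in Hb, 63.4, 55.02 and 61.26 in La and 8.58, 17 and 9.86 in Lb. It fell with age by 1.16 ± 0.29 on the log2 scale in Hezuo and by 2.02 ± 0.26 in Landrace (edgeR adjusted p = 0.00940 and 0.000158), and was no longer called in Hezuo without Ha replicate 1 (-0.84). CD81 had FPKM of 212.91, 214.92 and 201.94 in Ha and 55.09, 71.86 and 51.06 in Hb, and 222.89, 230.61 and 230.33 in La and 98.15, 109.13 and 99.07 in Lb. CD81 fell by 1.34 ± 0.13 in Hezuo, and in Landrace its -0.84 ± 0.10 was not called, though total counts and limma gave -1.02 to -1.16 and a call. The list had medians of -1.25 and -1.43.

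Other lists covered steps before and after fusion. Both genes of egg activation, PLCZ1 and WBP2NL, rose in both breeds. PLCZ1, the sperm phospholipase that starts calcium waves in the egg, rose by 6.37 ± 0.32 in Hezuo and 6.13 ± 0.19 in Landrace. WBP2NL rose by 7.41 ± 0.26 and 7.66 ± 0.28. All 6 genes of zona pellucida binding and the acrosomal matrix (ACR, ZPBP, ZPBP2, SPAM1, ACRBP and ZAN) rose in both breeds, with medians of 6.85 and 6.67. Of these, ACR, the main protease of the acrosome, rose the most, by 11.47 ± 0.48 in Hezuo and 9.94 ± 0.41 in Landrace, to FPKM of 121.07, 88.48 and 95.84 in Hb and 102.6, 89.84 and 81.77 in Lb. Its 30-day counts were near 0, 2, 0 and 4 in Ha and 0, 7 and 6 in La, so that the size of its fold is uncertain. Of the 3 chaperones of sperm surface proteins, CLGN rose by 4.18 ± 0.26 and 4.43 ± 0.18 and CALR3 by 6.05 ± 0.46 and 5.74 ± 0.23, while PDILT was too low to be tested. Medians of the lists of egg activation and of chaperones were 6.89 and 5.12 in Hezuo and 6.90 and 5.09 in Landrace. Between Ha and La edgeR called ZAN lower in Landrace and no other gene of these 5 lists. Between Hb and Lb edgeR called 0 genes of any of these 5 lists. CRISP2 (-0.91, edgeR adjusted p = 0.0220), CLGN (-0.58, edgeR adjusted p = 0.0495) and CD81 (0.67, edgeR adjusted p = 0.0495) passed on adjusted p but not on fold. The medians of the 5 lists were -0.17 for the other sperm factors, 0.33 for the oocyte partners, -0.43 for egg activation, -0.46 for the zona and acrosome list and -0.36 for the chaperones.

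By Pearson correlation with IZUMO1 on log2(CPM + 1) over the 12 libraries, the 5 most alike of 16491 named genes were SPACA5, CFAP157, ACRV1, TEPP and PRSS58, with r of 0.999 to 0.998. The libraries fall into the ages, so that these values mainly describe genes that are off at 30 days and on at 120 days. The fusion genes themselves had r of 0.996 for DCST2, 0.994 for SPESP1, 0.986 for IZUMO4, 0.965 for DCST1, 0.940 for TMEM95, 0.827 for IZUMO2 and 0.409 for IZUMO3. Over the 6 libraries of 120 days the most alike were TMEFF1 (0.995), DUSP5 (0.985), SPACA5 (0.982), SPACA1 (0.978) and C17H20orf194 (0.975), as a description with no test. Among those 6 libraries r was 0.645 for DCST2, 0.597 for SPESP1, 0.105 for IZUMO3, 0.0767 for IZUMO4, 0.0276 for IZUMO2, -0.293 for TMEM95 and -0.569 for DCST1.

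In the genome (Sscrofa11.1), DCST1 and DCST2 are neighbours. Coding genes beside the fusion genes were added after their values were seen. DCST1 (ncbi_100622304) spans positions 94748430 to 94768322 of chromosome 4 and DCST2 (ncbi_100154315) positions 94768533 to 94781482, 211 bp apart. ADAM15 lies 337 bp from DCST1, and ZBTB7B, at 94780404 to 94796722, overlaps the span of DCST2. The libraries keep strand, but the sources used here do not give whether the counting used it, so that reads in the overlap of DCST2 and ZBTB7B cannot be told apart with certainty. ADAM15 fell with age in Hezuo (-1.28 ± 0.19, edgeR adjusted p = 0.000672) and had -0.48 ± 0.28 in Landrace, where it was not called. ZBTB7B had -0.87 ± 0.17 and -0.45 ± 0.11 and was not called, though total counts (-1.18) and limma (-1.14 on log2(FPKM + 1)) called it lower in Hezuo. Neither neighbour shared the rise of the DCST genes.

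**Figure D4:**
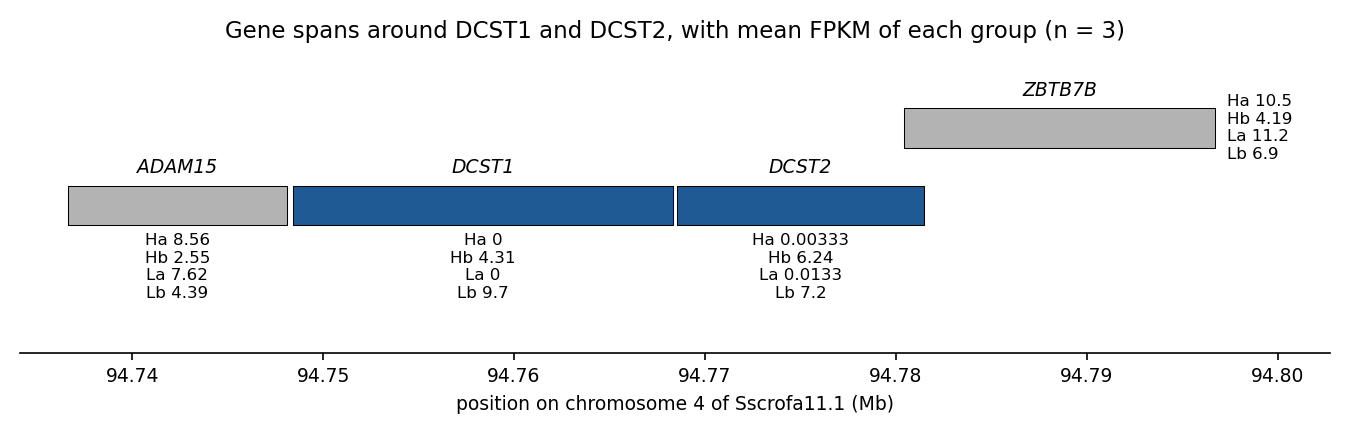
Spans of DCST1, DCST2 and the adjacent ADAM15 and ZBTB7B on chromosome 4 of Sscrofa11.1, drawn to scale in Mb without strand, with the mean FPKM of each group of 3 boars. DCST1 goes from 0 at 30 days to means of 4.31 in Hb and 9.70 in Lb, and DCST2 to 6.24 and 7.20.

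The other genes lie apart from each other. IZUMO1 (ncbi_100524565) is at 54072607 to 54076319 and IZUMO2 (ncbi_100524938) at 55059627 to 55069937 of chromosome 6. IZUMO4 (ncbi_100514821) is at 76472227 to 76475227 of chromosome 2, and TMEM95 (ncbi_100621980) at 52701119 to 52704121 of chromosome 12. Chromosome 1 holds SPESP1 (ncbi_100415935) at 166818174 to 166839717 and IZUMO3 (ncbi_100152877) at 198357091 to 198360043. Coding genes within 10 kb of them did not share a direction. Beside IZUMO4, MOB3A at 170 bp rose by 2.30 ± 0.19 in Hezuo and 2.06 ± 0.13 in Landrace, and AP3D1 at 961 bp had 0.79 ± 0.18 and 0.90 ± 0.20 and was not called. AP3D1 was called in Landrace without La replicate 2 or 3, at 1.01 in each case. Beside IZUMO1, RASIP1 at 192 bp fell by 1.37 ± 0.19 in Hezuo and by 1.29 ± 0.27 in Landrace, and FUT1 at 1112 bp fell by 1.72 ± 0.31 in Hezuo. In Landrace FUT1 had -0.66 ± 0.30 and was called only without Lb replicate 3 (-1.02). FGF21 at 6334 bp had -0.48 ± 0.68 in Hezuo (edgeR adjusted p = 0.551) and was not called. It fell by 1.56 ± 0.38 in Landrace and was not called there by limma on log2(FPKM + 1), at -0.68. LOC110261360 was too low to be tested. Its span overlaps that of FUT1 by 307 bp, so that the counts of both are uncertain.

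Long noncoding RNA (lncRNA) transcripts within 10 kb of a fusion gene were 2 of the 10706 in the deposited lncRNA table. An assembled lncRNA with the identifier MSTRG.1399.2 ends 370 bp from IZUMO3, at 198163333 to 198356721 of chromosome 1. It spans 193389 bp and has class code j, given to isoforms that share a splice junction with an annotated transcript. It had 0 counts in all 6 libraries of 30 days, 6.07, 9.16 and 18.1 in Hb and 11.7, 38.8 and 32.1 in Lb. All 120-day libraries held it, while IZUMO3 was near 0. It was at least 6.91-fold higher in Lb than in La (edgeR adjusted p = 0.00226) and at least 3.41-fold higher in Hb than in Ha, where it did not pass the filter. A transcript of LOC102161741, 9849 bp from IZUMO1, had counts of 100, 100.3 and 102 in Ha, 35.6, 40 and 48.5 in Hb, 80.5, 95.5 and 77.9 in La and 50.5, 37.9 and 31.7 in Lb. It fell by 1.42 ± 0.32 on the log2 scale in Hezuo and by 1.51 ± 0.33 in Landrace (edgeR adjusted p = 0.00687 and 0.00457), opposite to IZUMO1. Its span overlaps that of RASIP1 by 4011 bp, so that the counts of both are uncertain. Thus 1 transcript of 1 tested was called in Hezuo, where 56.2% of 2909 lncRNA transcripts were called, and 2 of 2 in Landrace, where the share was 61.1% of 2988. MSTRG.1399.2, at 0 in La, passed the filter only through Lb and had to differ, so that its call carries no further weight. Scaled by the coding-gene table instead, LOC102161741 had -0.72 and -0.96 and lost both calls, with edgeR adjusted p of 0.118 and 0.0522 against ranges of 0.00109 to 0.118 and 0.000743 to 0.0522 over the alternatives.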

How the data were processed

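The deposited tables gave, per coding gene and per lncRNA transcript, FPKM and estimated counts that the authors made. Their processing used fastp 0.18.0 for cleaning, Bowtie2 2.2.8 to remove ribosomal reads, HISAT2 2.1.0 for mapping and StringTie 1.3.4 for assembly. The tool behind the counts is not given in the sources used here, and 37.5% of the coding counts above 0 were not whole. The authors' FPKM were rounded to 2 decimals.

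Rounded counts went into edgeR 4.0.16 (R 4.3.3, quasi-likelihood F tests) over the 6 libraries of a comparison, with TMM factors, filterByExpr at a minimum count of 10 and Benjamini-Hochberg adjustment over all tested features. The interaction used all 12 libraries, and lncRNA transcripts were fitted as their own table. Fold changes are the second group over the first. SE is the absolute log2 fold change over the square root of F. CPM use TMM factors over all 12 libraries. The floor of 3 counts per library equals 0.115 to 0.198 CPM in coding genes, and intervals and floors cover counting error only.

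Alternatives were DESeq2 1.42.0, RLE factors, total counts without TMM, limma 3.58.1 on log2 FPKM with a pseudocount of 1 or 0.1, omitting the filter, requiring 10 counts in each library of 1 group, fitting all 12 libraries together, the replicate number as a block, leaving out each library, and for lncRNA the library sizes of the coding table. Scripts were tested on simulated data. Named genes were all 9 fusion genes, the pathway lists and marker lists given with their counts, lncRNA transcripts within 10 kb and the 5 genes most alike to IZUMO1. Coding genes within 10 kb were added by position after the data were seen. The members and lists were chosen with earlier results of these data known. Positions come from the annotation of Sscrofa11.1 and the deposited assembly.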

Additional observations from a re-analysis of the deposited data

Results flagged for a closer look

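CRISP2 was called for a difference between the breeds in its change with age, in the test of that difference itself. In this test 5.14% of 17332 coding genes were called, and CRISP2 was singled out by its value there. Its counts rose from 53, 66 and 46 in Ha to 57669, 55592 and 55014 in Hb, and from 78, 47 and 52 in La to 37064, 37005 and 28745 in Lb. The 30-day groups overlapped, and at 120 days every Hezuo boar lay above every Landrace boar. The difference of the changes, Landrace minus Hezuo, was -1.21 ± 0.29 on the log2 scale (edgeR adjusted p = 0.0296). The value ran from -1.38 to -0.90 over the 20 alternatives, with adjusted p of 0.00121 to 0.0749. It was not called with limma, at -0.90 and -0.98, nor in 8 of the 12 fits that left out a library. These were the fits without Ha replicate 1 (adjusted p = 0.0749) or 3 (0.0551), Hb replicate 3 (0.0575), La replicate 1 (0.0710) or 2 (0.0509), and Lb replicate 1 (0.0520), 2 (0.0522) or 3 (0.0601). Of the 8 spermatid markers, PRM1 was called lower in the same test (-1.83 ± 0.44, edgeR adjusted p = 0.0322). ACRV1 was called too, but its counts in Ha were near 0 and no value is given. The other 6 were not called, with -2.52 ± 0.76 for AKAP4, -1.41 ± 0.62 for TNP2, -1.03 ± 0.44 for ODF1, -0.46 ± 1.34 for PRM2 and 0.17 ± 0.27 for SPACA1, while TNP1 was near 0 in Ha and La. The value of CRISP2 lay within the range of these markers. The part of spermatid number in the difference was not tested.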

How the results depend on the processing

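The 6 fusion genes called higher with age kept their direction in all 180 refits of both breeds and their call in 178. The exceptions were TMEM95 with limma on log2(FPKM + 1), at 0.64 and 0.62. IZUMO1, TMEM95, DCST1 and DCST2 passed the filter only through the older boars and had to differ. Their part in these counts of refits thus carries no further weight. The count of called fusion genes equalled the reported count in 64 of 80 refits. With age it was 5 with limma on log2(FPKM + 1) and 7 without the filter in each breed, and 6 to 7 without 1 library. The added gene was IZUMO2. In the fits without 1 library it passed the filter only through the older boars, so its calls there carry no further weight. Between Hb and Lb the count was 1 instead of 0 with DESeq2, in the fit of all 12 libraries and without Hb replicate 2, and 0 to 1 over the fits without 1 library. It was 1 in the interaction with limma on log2(FPKM + 1). The cause was not tested.

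Replicate numbers did not pair the boars, since deviations of libraries with the same number correlated by -0.0613 to 0.0574, all under 0.1. With the replicate block, 154 genes were called between Hb and Lb instead of 628, IZUMO2 had 0.03 there, and the other counts of calls stayed within 1.5 times.

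Counts over all genes moved most between Hb and Lb, to 1153 with DESeq2, 1227 in the fit of all 12 libraries and 97 to 1029 without 1 library. In the interaction they were 1363 with DESeq2, 1365 with limma on log2(FPKM + 0.1) and 437 to 1242 without 1 library. Between Ha and La limma on log2(FPKM + 1) called 507 instead of 1192. The lncRNA calls near fusion genes fell from 3 to 1 when scaled by the coding-gene table.

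Some differences changed sign without being called. Between Hb and Lb, IZUMO2 had 0.05 with total counts, 0.01 and 0.06 with limma and -0.59 to 0.62 without 1 library. TMEM95 had 0.01 and 0.06 with limma and -0.43 to 0.22 without 1 library, and DCST2 -0.10 to 0.27. Between Ha and La, SPESP1 had -0.03 with total counts, -0.01 with limma at either pseudocount and -0.27 to 0.26 without 1 library, and IZUMO4 -0.07 to 0.56. In the interaction the fitted values were -1.37 for DCST2, -1.98 for TMEM95 and 2.40 for IZUMO2, which are no bounds. DCST2 had 0.15 and 0.07 with limma and -3.06 to 1.80 without 1 library, TMEM95 -3.62 to 1.61 and IZUMO2 -0.03 to 3.12. These 3 genes had 0 to 4 counts in each 30-day library. The sign turned without La replicate 2 for DCST2 and TMEM95, and without Ha replicate 3 for IZUMO2. The cause of these changes was not tested.

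With 3 boars per group and counts of 0 to 4 at 30 days, the size of the folds of DCST1, DCST2, TMEM95 and IZUMO2 is poorly set, and 6 of the 8 genes did not pass the filter between the breeds at 30 days.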

Other observations

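KCTD11, which lies 154 bp from TMEM95, was singled out after its values were seen. It had estimated counts of 249, 229 and 286 in Ha and 164, 242 and 223 in La, and 0 in all 6 libraries of 120 days. TMEM95 had at most 4 counts in any 30-day library and at least 24.2 in every 120-day library, so that the neighbours had their higher counts at opposite ages. The span of KCTD11 overlaps that of ACAP1 by 592 bp, and the counts of both are uncertain. With a floor of 3 counts per library, KCTD11 was at least 58.4-fold lower in Hb than in Ha (edgeR adjusted p = 5.24e-05) and at least 64.5-fold lower in Lb than in La (edgeR adjusted p = 2.00e-05). KCTD11 passed the filter only through its 30-day libraries and had to differ, so that these calls carry no further weight. ACAP1, at 2373 bp from TMEM95, rose with age, by 2.43 ± 0.44 in Hezuo and 2.12 ± 0.59 in Landrace, and with limma on log2(FPKM + 1) had 0.83 and 0.79 and was not called. TNK1, at 7012 bp, was too low to be tested with age.

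The length implied by the estimated count, the FPKM and the total of coding counts had a median of 3.42 kb for TMEM95, while its annotated span is 3.00 kb. For the other fusion genes with enough counts the implied length was below the span, such as 1.71 kb against 3.71 kb for IZUMO1 and 1.28 kb against 3.00 kb for IZUMO4. As the span includes introns, a length below it is no check on the counts of those genes. How the authors counted reads between TMEM95 and its neighbours is not given in the sources used here, and the levels of TMEM95 and KCTD11 are uncertain to that extent.

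Within the 120-day libraries the fusion genes did not keep a fixed ratio on the FPKM scale. IZUMO4 over IZUMO1 was 16.7, 9.50 and 19.9 in Hb and 20.4, 6.91 and 20.4 in Lb. SPESP1 over IZUMO1 was 3.69, 2.77 and 3.79 in Hb and 4.27, 2.42 and 4.09 in Lb. Replicate 2 was the lowest of its group for both ratios in both breeds.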
